A study of Mus musculus with 46 samples.

Results

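Ribosome footprints and transcripts are described here for 7 genes whose proteins bind mRNA in the cytoplasm: Pabpc1 and Pabpc4, which encode cytoplasmic poly(A)-binding proteins, Larp1, which encodes a La-related protein, Ybx1 and Ybx3, which encode Y-box proteins, and Pcbp1 and Pcbp2, which encode poly(C)-binding proteins. They were taken by gene symbol, and all 7 were found among the 9857 symbols that the tables of both treatments hold. The selection was made with an earlier analysis of these data at hand, which had named Pabpc1 and Ybx1 for their difference between Ctu1 iKO and control cells in DMSO. That difference is therefore given below as a description and without a test. With torin 1, an inhibitor of mTOR kinase, the footprints of Pabpc1 fell more than those of any other of the 9857 genes, in control and in Ctu1 iKO cells alike, while its transcript rose in both. These falls are measured from the same DMSO libraries, so this rank is not independent of the choice.

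The cells were EPP2, a murine pancreatic cancer line, derived from 1 single-cell clone with an inducible Cas9. The knockout of Ctu1 was induced with doxycycline at 300 ng/mL for 4 days, a treatment text that the labels give alike for all libraries, and the control cells are labelled WT. The study's methods name guides to non-coding sites or cells without doxycycline as controls of the CRISPR experiments in general, and which of these a given library is was not stated in the sources used here. Both kinds of cell were given DMSO or 300 nM torin 1 for 2 h. Each culture gave a footprint library and a poly(A) RNA library, in all 46 libraries from 23 cultures, of which 6 were control in DMSO, 6 control with torin 1, 5 Ctu1 iKO in DMSO and 6 Ctu1 iKO with torin 1. Ctu1 encodes the catalytic subunit of the cytosolic thiouridylase, which modifies the wobble uridine of the tRNAs for lysine, glutamine and glutamate.

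Poly(A)-binding proteins coat the 3′ tail of mRNA and contact the initiation factor eIF4G, which joins the tail to the cap. LARP1 binds the cap and the first bases of mRNAs that begin with a terminal oligopyrimidine (TOP) tract, a C followed by a run of C and T, and mTOR controls its hold on them. The mRNAs of ribosomal proteins, of elongation factors and of PABPC1 itself are textbook TOP mRNAs. Y-box proteins package mRNA through a cold shock domain, and the PCBP proteins bind C-rich stretches through KH domains and take part in mRNA stability and translation.

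The annotated transcript starts are printed because TOP mRNAs are defined by their first bases. Each window holds 15 bases before and 15 bases from the start on, in RefSeq on GRCm38.p6, read 5′ to 3′ on the gene's strand. Capitals mark the longest stretch of C and T counted from a base that lies within 4 bases of the start, and pyrimidines further upstream were not counted. Windows are shown for 5 of the 7 genes, with a pair of starts for Pcbp2, and Pabpc1 and Pabpc4 are named only.
Larp1, chr11:58009049-58009078 (+): cggctaggcgcgccggagCCTTCTgcccgg
Ybx1, chr4:119294499-119294528 (-): ttatcccgcccgTCCCgccattctcgctag
Ybx3, chr6:131388436-131388465 (-): cgcccgcgagcaCTTgcgcggggccatctt
Pcbp1, chr6:86526175-86526204 (-): ttgaaagcgggCTTCCCgccccgcccagac
Pcbp2, first start, chr15:102470524-102470553 (+): ccgccccgtccCCCTCCCagaccagcagag
Pcbp2, second start, chr15:102470617-102470646 (+): cgccctccgccgCCCTCCacccgccccggg
Counted in this way, a stretch of at least 5 bases stood at the starts of Larp1 (6 bases), Pcbp1 (6) and Pcbp2 (7 and 6), and those of Ybx1 and Ybx3 had 4 and 3 bases. At the first Pcbp2 start the pyrimidines go on upstream of the capitals. Such a stretch, counted likewise, stood in 19.9% of all 32851 promoters of the table and in 41.6% of 77 promoters of cytosolic ribosomal protein genes. A stretch is a match of letters at an annotated start, and the starts used in EPP2 cells were not measured.

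Footprint libraries held 4602092 to 52907878 counts and the RNA libraries of replicates 1 to 3 held 129881946 to 293648854. Behind the members stood at least 222 footprint counts (Pabpc1) and 23764 RNA counts per library. Of the RNA libraries of replicates 3 to 6, 6 of 15 lay nearer to the other treatment than to their own label when set against replicates 1 and 2, none of them a replicate 3, and 0 of 15 footprint libraries did, so transcripts are given for replicates 1 to 3 and footprints for all replicates. Ctu1, the targeted gene, had 4.62 ± 0.301 RNA CPM in Ctu1 iKO and 4.61 ± 0.119 in control (SD, n = 3, DMSO), and 1.78 ± 0.415 (n = 5) and 2.52 ± 0.649 (n = 6) footprint CPM, and the tables with torin 1 do not list it. Counts per gene do not show edits in the targeted exon. Of 9 markers of ductal epithelium 5 were listed (Krt8, Krt18, Krt19, Epcam and Sox9), with 294 to 401 summed RNA CPM, beside 5280 to 9700 for 4 mesenchymal markers, 30.9 to 55.2 for 4 fibroblast markers, 1.54 to 2.53 for the single listed immune marker, and no listed acinar or endothelial marker. Levels are CPM, the counts per 1e+06 counts of a library scaled by TMM factors, so a value is relative to the other genes of its library and does not show a change in total translation. In these bulk samples, fewer cells of a kind and less RNA or fewer ribosomes per cell cannot be told apart.

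In control cells, torin 1 lowered the footprints of 4 of the 7 genes, Pabpc1, Ybx1, Pabpc4 and Ybx3, and raised those of none, where 6.91% of all 9857 genes were called and 4.06% were called lower (edgeR quasi-likelihood test, Benjamini-Hochberg adjusted p under 0.05). Same-numbered libraries pair in this comparison. With the replicate number as a block all 7 genes were called lower, where 1375 of all genes were called and 755 were called lower. Each of the 7 was lower with torin 1 in 6 of 6 pairs, and the share of all genes with that pattern was not counted. In Ctu1 iKO cells torin 1 lowered the footprints of 5, the same 4 and Pcbp2, where 12% of all genes were called and 6.36% were called lower. Under torin 1, the footprints of 4 genes, Pabpc1, Pabpc4, Ybx1 and Pcbp2, were lower in Ctu1 iKO than in control, where 8.54% of all genes were called and 4.6% were called lower. With library totals in place of TMM factors, 34.5%, 30.9% and 38.9% of the called genes were lower, against 58.7%, 52.8% and 53.8%, and the Ybx3 call in control was lost. The median log2 change of the 7 genes was -0.51, -0.82 and -0.52 in these comparisons, and the median over all genes lay between 0.00 and 0.04. Neighbouring comparisons share libraries: the torin 1 effect in control and the Ctu1 iKO effect under torin 1 share the control torin 1 libraries, so their values for a gene are not independent. By range, the groups did not overlap, with the lower values where the calls are lower, for 3, 5 and 3 of the 7 genes in these comparisons, beside 3.43%, 4.69% and 2.52% of all genes. Replicates carry numbers but the sources name both 2 and up to 6 independent experiments, so the p-values measure the spread between these samples, which may be technical.

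**Figure D1:**
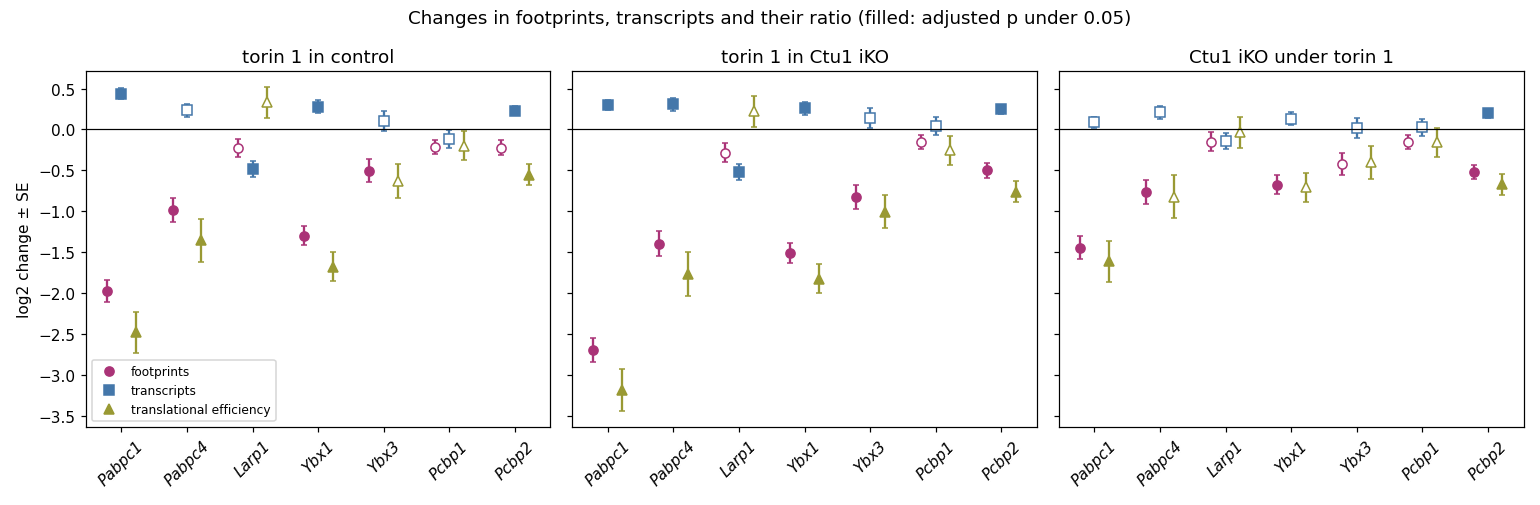
Log2 change ± SE (edgeR, y axis) of footprints (circles, 23 libraries), transcripts (squares, replicates 1 to 3) and translational efficiency (triangles, replicates 1 to 3) for the 7 genes in 3 comparisons. Filled symbols have an adjusted p under 0.05, and the largest fall in every panel is that of Pabpc1, with -1.97, -2.69 and -1.44 for its footprints.

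Pabpc1 (chromosome 15, 36595661 to 36609668, minus strand, GRCm38) encodes the main cytoplasmic poly(A)-binding protein. Its footprints in control DMSO libraries ran from 540.4 to 661 CPM with a median of 599, and with torin 1 from 85.3 to 171 CPM with a median of 167. In Ctu1 iKO cells the 5 DMSO libraries had 350.3, 438, 311, 347 and 364 CPM, and the torin 1 libraries ran from 45.9 to 70.0 CPM with a median of 56.6. No group overlapped another, and the order was control DMSO, Ctu1 iKO DMSO, control torin 1, Ctu1 iKO torin 1. The log2 change with torin 1 was -1.97 ± 0.139 (SE) in control (adjusted p = 1.95e-10, edgeR) and -2.69 ± 0.147 in Ctu1 iKO (adjusted p = 4.14e-13), the lowest of 9857 genes in both. By replicate number, the difference between torin 1 and DMSO lay between -2.66 and -1.71 in the 6 control pairs and between -3.00 and -2.31 in the 5 Ctu1 iKO pairs. Under torin 1, Pabpc1 was lower in Ctu1 iKO than in control by a log2 change of -1.44 ± 0.138 (adjusted p = 1.25e-07), the 12th lowest value.

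Of the control torin 1 libraries, replicate 1 stood apart for Pabpc1 at 85.3 CPM, with the next at 155. Without it the log2 change with torin 1 in control was -1.85 and that of Ctu1 iKO under torin 1 was -1.57. The interaction, the log2 change with torin 1 in Ctu1 iKO minus that in control, was -0.72 ± 0.195 for Pabpc1 (unadjusted p = 0.00118, adjusted p = 0.126, edgeR), which missed the threshold over all genes. The interaction also equals the Ctu1 iKO difference under torin 1 minus that in DMSO, the difference by which Pabpc1 was chosen, so neither its value nor its tests are independent of that choice. It passed without control torin 1 replicate 1 (log2 difference -0.84, adjusted p = 0.00202), with DESeq2 (-0.73, adjusted p = 0.0157) and with the replicate number as a block (-0.72, adjusted p = 0.0175). It also passed with replicates 3 to 6 alone (-0.68, adjusted p = 0.0493). It did not pass with library totals (adjusted p = 0.103) or with a term for replicates 1 and 2 against 3 to 6 (0.0645). Nor did it pass with replicates 1 and 2 alone, with replicates 1 to 3 alone, or without any other single library (0.0742 to 0.307). Across all genes 0.639% were called in this interaction, each with a lower value in Ctu1 iKO, and of the 7 genes 0 were called by edgeR and 1 by DESeq2, with Pabpc1 and Pcbp2 (-0.28 ± 0.131) below an unadjusted p of 0.05.

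The Pabpc1 transcript moved the other way. It had 948, 965 and 964 RNA CPM in control DMSO and 1409, 1247 and 1240.5 CPM with torin 1, a log2 change of 0.44 ± 0.0653 (adjusted p = 0.00149). In Ctu1 iKO it had 1118, 1123 and 1127 CPM in DMSO and 1437, 1305 and 1404 CPM with torin 1 (0.30 ± 0.0653, adjusted p = 0.00889), a call lost when these groups were fitted alone (0.29, adjusted p = 0.0615). All torin 1 libraries lay above all DMSO libraries of their cell type. Between Ctu1 iKO and control under torin 1 the transcript differed by 0.09, which was not called (adjusted p = 0.419).

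Pabpc4 (chromosome 4, 123262351 to 123298925, plus strand) encodes an inducible cytoplasmic relative of the same protein. Its footprints ran from 342 to 504 CPM (median 405) in control DMSO and from 124 to 265 CPM (median 218) with torin 1. The Ctu1 iKO libraries in DMSO had 296, 410.1, 329.6, 309 and 288 CPM, and those with torin 1 ran from 98.6 to 155 CPM (median 120.2). Torin 1 and DMSO libraries did not overlap in either cell type, while the DMSO libraries of the cell types did, as did the torin 1 libraries. The log2 change with torin 1 was -0.98 ± 0.145 in control (adjusted p = 3.84e-05) and -1.40 ± 0.151 in Ctu1 iKO (adjusted p = 1.76e-07), and that of Ctu1 iKO under torin 1 was -0.76 ± 0.145 (adjusted p = 0.00113). Here too control torin 1 replicate 1 was the lowest of its group, at 124 CPM with the next at 213, and without it the change in control was -0.87. The transcript had 625, 665 and 734 RNA CPM in control DMSO and 808, 757 and 817 with torin 1 (0.23 ± 0.0798, adjusted p = 0.0848). With the replicate number as a block this became a call (0.24, adjusted p = 0.00302). In Ctu1 iKO the transcript rose from 714, 730.1 and 787 to 887, 873 and 998 CPM (0.31 ± 0.0798, adjusted p = 0.0217), a call lost without Ctu1 iKO DMSO replicate 1 or 2 or Ctu1 iKO torin 1 replicate 3 (0.055 to 0.0844). Under torin 1 it was 0.21 higher in Ctu1 iKO than in control, without a call (adjusted p = 0.115) and with one under the block (0.21, adjusted p = 0.00654).

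Larp1 (chromosome 11, 58009064 to 58062034, plus strand) was the only one of the 7 whose transcript was called lower. Its RNA level was 489.7, 522 and 528 CPM in control DMSO and 317, 399 and 382 CPM with torin 1, a log2 change of -0.49 ± 0.0992 (adjusted p = 0.00871). In Ctu1 iKO it was 466, 504 and 458 CPM in DMSO and 297, 368 and 329 CPM with torin 1 (-0.52 ± 0.0993, adjusted p = 0.00415). The torin 1 libraries lay below the DMSO libraries in both cell types. Its footprints had no call without the replicate block. They ran from 86.3 to 114 CPM (median 96.7) in control DMSO and from 73.6 to 111 CPM (median 77.0) with torin 1, and the groups overlapped. The Ctu1 iKO libraries had 95.3, 114, 91.8, 73.3 and 85.5 footprint CPM in DMSO and ran from 69.3 to 89.8 CPM (median 72.1) with torin 1. The footprint changes of -0.23 ± 0.112 in control (adjusted p = 0.273), -0.28 ± 0.118 in Ctu1 iKO (0.127) and -0.15 ± 0.113 between cell types under torin 1 (0.485) were not called. With the replicate number as a block the change in control was called (-0.24, adjusted p = 0.0268).

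Ybx1 (chromosome 4, 119277981 to 119294604, minus strand) encodes the main Y-box protein, an abundant packaging protein of cytoplasmic mRNA. Its footprints ran from 781 to 985 CPM (median 895) in control DMSO and from 307 to 462 CPM (median 336) with torin 1. The Ctu1 iKO libraries in DMSO had 729.7, 718, 612, 569 and 577 CPM, and those with torin 1 ran from 181 to 258 CPM (median 234). The groups kept the order seen for Pabpc1, and none of the 4 overlapped another. The log2 change with torin 1 was -1.30 ± 0.115 in control (adjusted p = 9.89e-09, the 23rd lowest of 9857) and -1.51 ± 0.12 in Ctu1 iKO (adjusted p = 6.06e-10, the 78th lowest). Under torin 1 Ybx1 was lower in Ctu1 iKO by -0.68 ± 0.114 (adjusted p = 0.000298). The transcript had 839, 816 and 862 RNA CPM in control DMSO and 1033, 959.6 and 1059 with torin 1, and 866, 937 and 985 against 1041, 1063 and 1236 in Ctu1 iKO. It thus rose by 0.28 ± 0.0799 (adjusted p = 0.0444) and 0.26 ± 0.0799 (adjusted p = 0.0436), close to the threshold, and both calls were lost when library totals replaced the TMM factors. The call in control was also lost without any 1 of 8 of the 12 libraries, all 6 of its own comparison among them (adjusted p = 0.0529 to 0.131), and that in Ctu1 iKO without any 1 of 10 (0.0537 to 0.168), all but Ctu1 iKO DMSO replicate 3 and Ctu1 iKO torin 1 replicate 1.

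Ybx3 (chromosome 6, 131364855 to 131388476, minus strand), the second Y-box gene, fell with torin 1 in both cell types, with values nearer to 0 than those of Ybx1 and a difference between the genes that was not tested. Its footprints ran from 486 to 678 CPM (median 617) in control DMSO and from 331 to 506 CPM (median 428) with torin 1. In Ctu1 iKO the DMSO libraries had 669.9, 645, 549, 426 and 474 CPM and the torin 1 libraries ran from 239.7 to 383 CPM (median 311). The groups overlapped in control and were separate in Ctu1 iKO. The log2 change with torin 1 was -0.51 ± 0.139 in control (adjusted p = 0.0257) and -0.82 ± 0.146 in Ctu1 iKO (adjusted p = 0.000295). The call in control was lost with library totals (adjusted p = 0.0506), with replicates 1 to 3 alone (0.204), and without control DMSO replicate 1, 2 or 4 or control torin 1 replicate 3, 5 or 6 (0.0547 to 0.0687, edgeR). Under torin 1 the value in Ctu1 iKO was -0.42 ± 0.14 relative to control (adjusted p = 0.061), and it was called with the replicate number as a block (-0.42, adjusted p = 0.00109), with DESeq2 (0.0303), and without control torin 1 replicate 5 or Ctu1 iKO torin 1 replicate 1 or 2 (0.034 to 0.0487). No transcript change of Ybx3 was called, with log2 values of 0.10, 0.14 and 0.01 in these comparisons and 569 to 807 RNA CPM over the 12 libraries.

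Pcbp1 (chromosome 6, 86524492 to 86526321, minus strand), a gene with 1 exon, had no call in any comparison without the replicate block. Its footprints ran from 240.2 to 299.8 CPM (median 279) in control DMSO, from 192 to 265 CPM (median 239) with torin 1 and from 194 to 228 CPM (median 213) in Ctu1 iKO with torin 1, and the Ctu1 iKO DMSO libraries had 240.0, 278, 215, 224 and 223 CPM. All of these groups overlapped their neighbours except control DMSO and Ctu1 iKO torin 1. Changes of -0.21 ± 0.0832 in control (adjusted p = 0.144), -0.16 ± 0.0873 in Ctu1 iKO (0.277) and -0.15 between cell types under torin 1 (0.288) were not called, and the first was called with the replicate block (-0.21, adjusted p = 0.0465). Its transcript, at 168 to 226 RNA CPM in the 12 libraries, had no called change.

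Pcbp2 (chromosome 15, 102470539 to 102500061, plus strand), had the highest CPM of the 7 and fell with torin 1 in Ctu1 iKO. Its footprints ran from 4537 to 5272 CPM (median 4912) in control DMSO and from 3268 to 4722 CPM (median 4385) with torin 1. The Ctu1 iKO libraries in DMSO had 3731, 3673, 4286, 4576 and 4349 CPM, and those with torin 1 ran from 2534 to 3193 CPM (median 3009), below every library of the other groups. The log2 change with torin 1 was -0.22 ± 0.0902 in control (adjusted p = 0.16, called with the replicate block at -0.23 and adjusted p = 0.00297) and -0.50 ± 0.0943 in Ctu1 iKO (adjusted p = 0.000583). Under torin 1 Pcbp2 was lower in Ctu1 iKO by -0.52 ± 0.0904 (adjusted p = 0.000436). Its transcript rose with torin 1, from 3574, 3751 and 3604 to 4353, 4286 and 4165 RNA CPM in control (0.23 ± 0.0555, adjusted p = 0.0211, but 0.0535 to 0.0722 without DMSO replicate 1 or 3 or torin 1 replicate 1 or 2) and from 3901, 4291 and 4177 to 4908, 4963 and 4838 in Ctu1 iKO (0.25 ± 0.0555, adjusted p = 0.00984, but 0.0893 when these groups were fitted alone). It was also the single transcript of the 7 called between the cell types under torin 1 without the replicate block, by 0.20 ± 0.0555 (adjusted p = 0.0434). This call was lost with library totals and without any 1 of 9 of the 12 libraries (0.0565 to 0.128), all but Ctu1 iKO DMSO replicates 1 and 3 and Ctu1 iKO torin 1 replicate 3. With the block Pabpc4 was called too (0.21, adjusted p = 0.00654, edgeR).

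**Figure D2:**
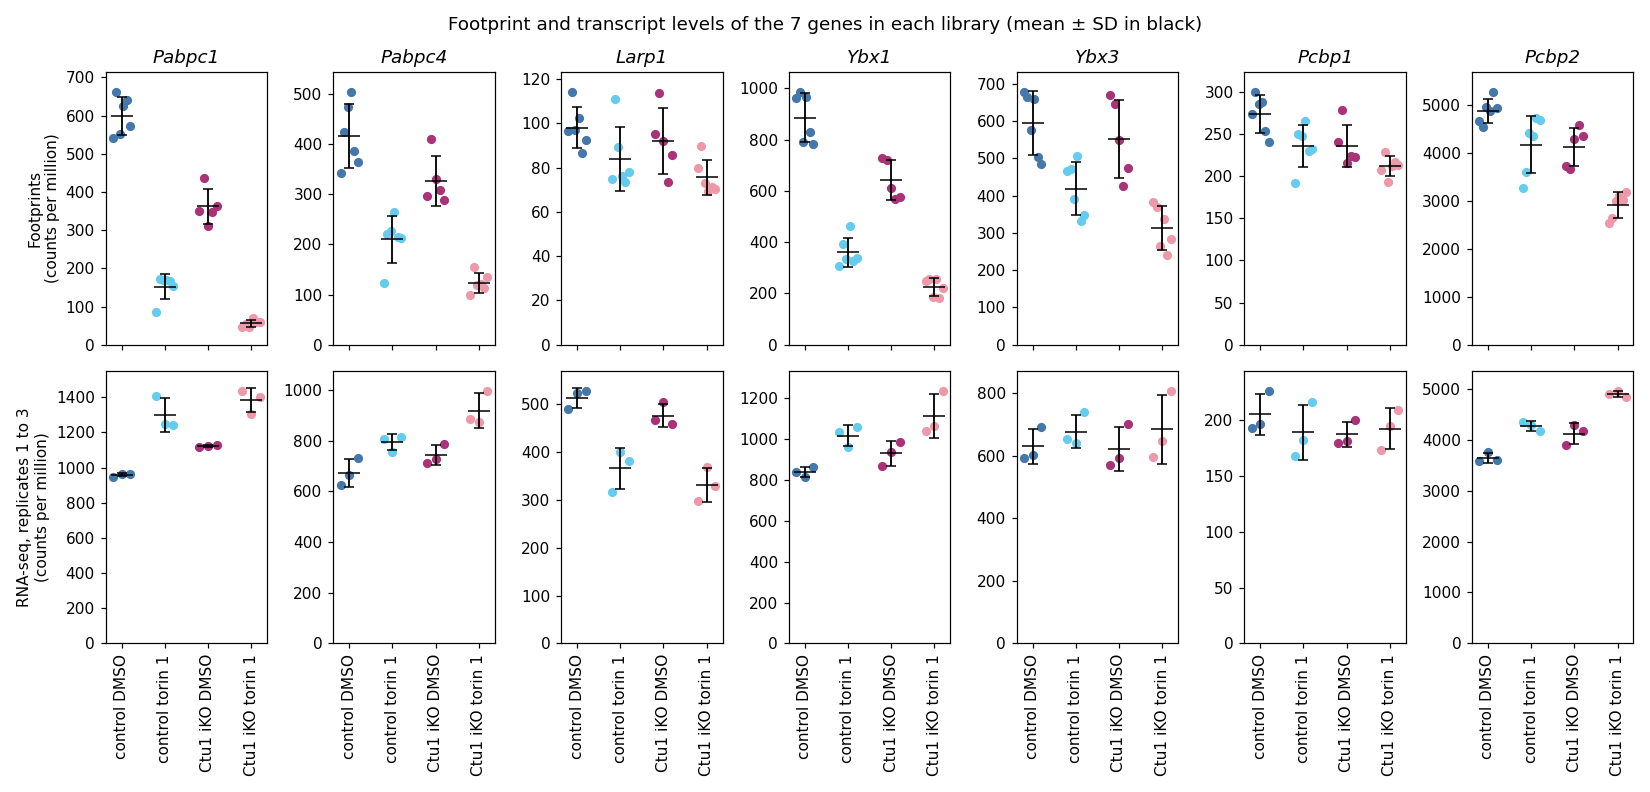
Level of each gene in every library (points) with the mean ± SD of its group, as TMM-scaled CPM for footprints (upper row, 5 or 6 libraries a group) and for RNA (lower row, replicates 1 to 3). For Pabpc1 the footprint means fall from 599 in control DMSO to 55.9 in Ctu1 iKO with torin 1, while its RNA level rises, and for Larp1 the RNA level falls with torin 1.

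Over the 7 genes, torin 1 in control changed 4 transcripts, those of Pabpc1, Ybx1 and Pcbp2 upward and that of Larp1 downward, where 11.8% of 9616 genes were called, 5.17% higher and 6.67% lower. In Ctu1 iKO it changed 5, with Pabpc4 added to the genes that rose, where 17.9% were called, 8.69% higher and 9.16% lower. Between the cell types under torin 1 the 1 call was Pcbp2, where 10.1% were called and 5.38% were called higher. With the replicate block Pabpc4 was called there too, where 3453 of all genes were called. With library totals the share of lower genes among those called was 67.2%, 71.3% and 63.7% in these comparisons, against 56.3%, 51.3% and 46.7%. The 3 libraries of a group separated from those of the other for 5, 5 and 2 of the 7 genes, which is a weak criterion with 3 against 3, met by 33.1%, 30.4% and 26.4% of all genes. When all 23 RNA libraries were used as labelled, 1, 0 and 0 members were called in these comparisons, beside 121, 0 and 0 of all genes.

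**Figure D3:**
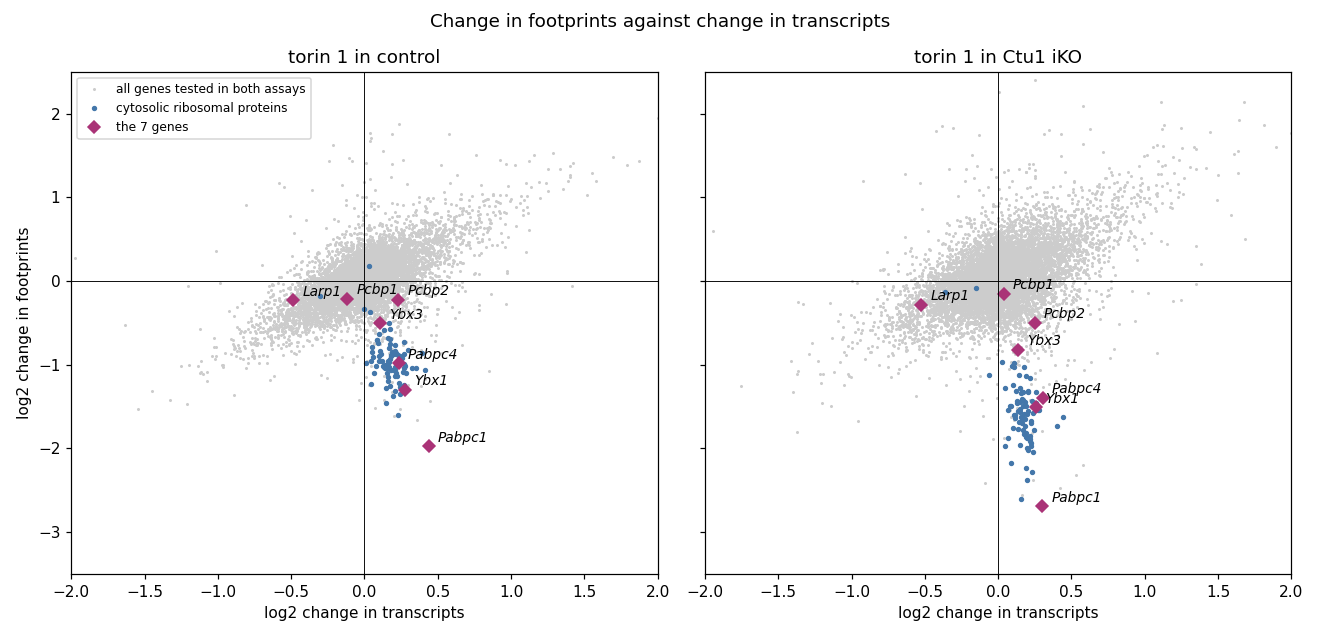
Log2 change of transcripts (x axis) against log2 change of footprints (y axis) with torin 1 in control (left) and in Ctu1 iKO (right) for 9616 genes, with ribosomal proteins in blue and the 7 genes labelled. Pabpc1 lies at the bottom right of zero in both panels (0.44 and -1.97, 0.30 and -2.69), Larp1 at the left (-0.49 and -0.23, -0.52 and -0.28), and 7 genes fall outside the axes of each panel.

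The footprint level divided by the RNA level of the same culture, here called translational efficiency, was compared in replicates 1 to 3 as the interaction of assay and group. The fit had no term for the culture and took 1 spread per gene for both assays. For Pabpc1 the SD within groups was 0.255 in log2 footprints and 0.0637 in log2 transcripts. The SEs and p-values of this fit therefore do not measure the spread of the ratios printed here. For Pabpc1 the ratio was 0.570, 0.685 and 0.572 in control DMSO, 0.0605, 0.137 and 0.136 in control with torin 1, 0.313, 0.390 and 0.276 in Ctu1 iKO in DMSO, and 0.0327, 0.0420 and 0.0327 in Ctu1 iKO with torin 1. None of these 4 groups overlapped another. The log2 change with torin 1 was -2.48 ± 0.252 in control (adjusted p = 2.24e-06, edgeR) and -3.19 ± 0.256 in Ctu1 iKO (adjusted p = 2.27e-08), the 15th and the 6th lowest of the genes tested. Under torin 1 it was -1.61 ± 0.252 in Ctu1 iKO relative to control (adjusted p = 0.00163). In the same replicates alone the footprint changes with torin 1 were -2.03 and -2.90.

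For Pabpc4 the ratio was 0.548, 0.638 and 0.647 in control DMSO and 0.153, 0.292 and 0.277 with torin 1 (log2 change -1.35 ± 0.265, adjusted p = 0.00574), and 0.415, 0.562 and 0.419 against 0.111, 0.178 and 0.119 in Ctu1 iKO (-1.77 ± 0.266, adjusted p = 0.000153). For Ybx1 it was 1.15, 1.21 and 0.919 in control DMSO and 0.297, 0.408 and 0.316 with torin 1 (-1.68 ± 0.178, adjusted p = 3.91e-06), and 0.842, 0.767 and 0.621 against 0.240, 0.243 and 0.150 in Ctu1 iKO (-1.82 ± 0.179, adjusted p = 3.91e-07). Both genes thus kept a separation of torin 1 from DMSO in each cell type. Under torin 1 the cell types differed without a call in Pabpc4 (-0.82 ± 0.265, adjusted p = 0.295) and in Ybx1 (-0.71 ± 0.178, adjusted p = 0.0796), and the replicate block gave a call for Ybx1 (-0.71, adjusted p = 0.0395).

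Pcbp2 had ratios of 1.31, 1.21 and 1.38 in control DMSO and 0.751, 0.842 and 1.06 with torin 1 (-0.55 ± 0.132, adjusted p = 0.0425). This call was lost with library totals (0.282) and without any 1 of 9 of the 12 cultures (0.0541 to 0.27), all but replicate 3 of control torin 1, of Ctu1 iKO DMSO and of Ctu1 iKO torin 1. In Ctu1 iKO it had 0.957, 0.856 and 1.03 in DMSO and 0.516, 0.532 and 0.618 with torin 1 (-0.76 ± 0.132, adjusted p = 0.000898), and it was lower in Ctu1 iKO under torin 1 by -0.67 ± 0.132 (adjusted p = 0.013), a call lost with library totals (0.0554) and without control torin 1 replicate 2 or 3 or Ctu1 iKO torin 1 replicate 1 or 2 (0.0628 to 0.0788). Ybx3 was called lower in Ctu1 iKO alone (-1.0 ± 0.205, adjusted p = 0.00491, against -0.63 ± 0.204 and adjusted p = 0.312 in control), and the difference between these effects was not tested. That call was lost without Ctu1 iKO DMSO replicate 1 (0.066), and the Pabpc4 call in control without control DMSO replicate 2 (0.0558). Larp1 had ratios of 0.184 to 0.218 in control DMSO and 0.234 to 0.278 with torin 1, with a log2 value of 0.33 ± 0.188 and no call, and Pcbp1 had -0.20 and -0.25 with torin 1 and no call. In all, 4 genes were lower with torin 1 in control, 5 in Ctu1 iKO and 2, Pabpc1 and Pcbp2, between the cell types under torin 1, where 1.18%, 2.51% and 0.67% of all genes were called and 1.14%, 2.16% and 0.629% were called lower. The ratios of the groups did not overlap for 6, 5 and 3 of the 7 genes, as for 16%, 19.6% and 13.4% of all genes. With library totals the median translational efficiency of all genes shifted by 0.13 with torin 1 in control and by 0.16 in Ctu1 iKO, where 53.1% rather than 86.2% of the called genes were then lower.

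**Figure D4:**
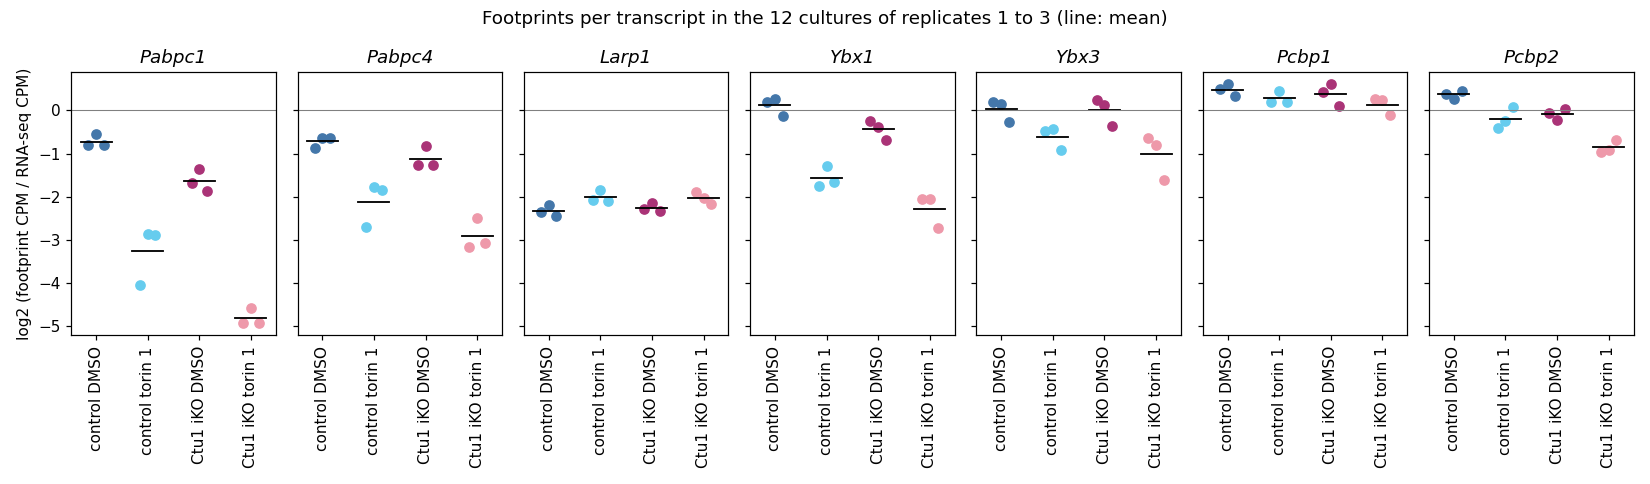
Log2 ratio of footprint CPM to RNA CPM (y axis) in each culture of replicates 1 to 3 (points) with the group mean (line) for the 7 genes and 4 groups. Pabpc1, Pabpc4 and Ybx1 drop with torin 1 in both cell types, and the Larp1 points of the torin 1 cultures lie above those of the DMSO cultures in control and overlap them in Ctu1 iKO.

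In DMSO, the contrast with which the genes had been chosen, the footprints of Ctu1 iKO cells differed from those of control cells by log2 values of -0.73 ± 0.142 for Pabpc1, -0.47 ± 0.12 for Ybx1, -0.35 ± 0.151 for Pabpc4, -0.24 ± 0.0948 for Pcbp2, -0.21 ± 0.0875 for Pcbp1, -0.11 ± 0.146 for Ybx3 and -0.09 ± 0.117 for Larp1. Pabpc1 and Ybx1 had no overlap between the cell types, as was seen with the lower values in Ctu1 iKO for 2.27% of all genes, and nothing is read from this count because of the selection. Transcripts differed by -0.13 (Pcbp1) to 0.23 (Pabpc1), and translational efficiency by -0.91 (Pabpc1) to 0.07 (Larp1). The comparison of the cell types under torin 1 uses no library of this contrast, but it sets the same kinds of cell against each other. Same-numbered control footprint libraries of the treatments also deviated together (r 0.397 to 0.641), and 1 fit gave the spread for both. That comparison is therefore not free of the choice either. The torin 1 effects use libraries of this contrast, since their baselines are these DMSO libraries. The falls of Pabpc1 and Ybx1 with torin 1, their p-values and their ranks are thus not independent of the choice.

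The footprint ratio of relatives within each library is given as a description, chosen after the values were seen. The ratio of Pabpc1 to Pabpc4 footprints had medians of 1.57 (range 1.16 to 1.66) in control DMSO, 0.737 (0.635 to 0.775) in control with torin 1, 1.12 (0.945 to 1.27) in Ctu1 iKO in DMSO and 0.456 (0.353 to 0.577) in Ctu1 iKO with torin 1. Pabpc1 had fewer footprints than Pabpc4 in every torin 1 library and more in every DMSO library except Ctu1 iKO replicate 3, while the ratio of their transcripts stayed between 1.31 and 1.74 in all 12 RNA libraries. Ybx1 to Ybx3 had medians of 1.47, 0.886, 1.11 and 0.73 in the same order of groups, with transcript ratios of 1.25 to 1.75. Pcbp2 to Pcbp1 had 17.2, 17.5, 19.5 and 14.3, with transcript ratios of 15.9 to 28.3, and kept its order in every library.

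Per kilobase of coding sequence, the footprint levels in control DMSO were in the order Pcbp2 (4658 CPM per kilobase, rank 32 of 9606 genes), Ybx1 (917), Ybx3 (549), Pabpc1 (314, rank 531), Pcbp1 (256), Pabpc4 (210.1) and Larp1 (30.5, rank 3571). Of neighbours in this order, the libraries of Pcbp1 and Pabpc4 overlapped. In Ctu1 iKO with torin 1 the order was Pcbp2 (2783), Ybx3 (289), Ybx1 (233), Pcbp1 (198), Pabpc4 (62.5), Pabpc1 (29.3, rank 3708) and Larp1 (23.5, rank 4220). Here the libraries of Ybx3 and Ybx1, of Ybx1 and Pcbp1, and of Pabpc1 and Larp1 overlapped. Pabpc1 held rank 1786 in control with torin 1 and rank 861 in Ctu1 iKO in DMSO. By transcripts per kilobase in control DMSO, Pcbp2 led with 2430.2 CPM per kilobase, followed by Ybx1 with 515, Pabpc1 with 340.4 and Ybx3 with 339.5, whose libraries overlapped, and Larp1 was lowest with 77.6.

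Over the 23 footprint libraries, the genes outside the 7 with the most similar profile were taken by Pearson's r of log2 CPM among the 8856 genes that averaged 100 counts or more. These values describe libraries that share treatments and are given without a p. Pabpc1 was nearest to Rpl3 (0.983), Eif3f (0.979) and Rpl4 (0.979), and Ybx1 to Rpsa (0.979), Rps18-ps5 (0.975) and Rpl27a (0.974). Ybx3 was nearest to Rps15 (0.974) and Rpl36 (0.966), both ribosomal proteins like most of the former. Rps18-ps5 has the symbol of a pseudogene and is not in the list of ribosomal proteins used below. Pabpc4 was nearest to the elongation factor Eef2 (0.973), the initiation factor Eif4b (0.969) and the chaperone Hspa8 (0.967). Pcbp2 was nearest to the chaperonin subunit Tcp1 (0.974), the import receptor Ipo5 (0.962) and Npm1 (0.956). Larp1 reached 0.887 with Klf16 and Pcbp1 0.884 with Tkt. Among the 7, Pabpc1 correlated with Pabpc4 and with Ybx1 at 0.97 each, Ybx1 with Ybx3 at 0.92, and Larp1 with Pcbp2 at 0.33.

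Other genes of the same machinery were taken from lists written with earlier results of these data known. The 81 cytosolic ribosomal proteins fell in footprints by a median log2 change of -0.97 with torin 1 in control, with 77 called lower and 0 higher, and by -1.58 in Ctu1 iKO, with 79 called lower. The lowest in control was Rps27 (-1.60, adjusted p = 1.5e-11) and the highest Rps27l (0.18). Under torin 1, 74 were lower in Ctu1 iKO (median -0.71), and the interaction was called for 39 of them. The 5 elongation factors were all called lower in control (median -1.26, lowest Eef1b2 with -1.52, highest Eef1d with -0.25), in Ctu1 iKO (-2.32) and between the cell types under torin 1 (-1.09). The fall of Pabpc1 with torin 1 in control was below that of every one of these 86 genes, and that of Larp1 and the PCBP genes was smaller than the median of either list.

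Relatives and partners of the 7 genes were called at shares that are read beside the 6.91% of all genes called with torin 1 in control and the 4.06% called lower. Of the poly(A)-binding and La-related relatives 6 were listed and 1 was called with torin 1 in control, Larp4 (-0.48, adjusted p = 0.015). Larp4b was the highest there with 0.06 and rose in Ctu1 iKO (0.43, adjusted p = 0.00703), with a change in translational efficiency of 0.72 (adjusted p = 0.0181) and a transcript that fell (-0.23, adjusted p = 0.0436). Of 10 KH-domain relatives 1 was called lower in control, Igf2bp1 (-0.52, adjusted p = 0.0255), with Pcbp3 the highest (0.13), and the list's median was -0.10. The cold shock gene Carhsp1 had 0.00 in control, without a call. Of 19 partners of poly(A)-binding protein, 2 were called lower in control, with a median of -0.04. The lowest was Usp10, a deubiquitinase (-0.60, adjusted p = 0.00418), whose transcript fell too (-0.84, adjusted p = 0.00028), and the highest was Paip2, a repressor that binds poly(A)-binding protein (0.46, adjusted p = 0.0653), whose transcript rose (0.42, adjusted p = 0.0194). The CCR4-NOT deadenylase had 0 of 11 subunits called in control, from Cnot4 with -0.28 to Cnot8 with 0.24.

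The coding sequences of the 7 genes run from 966 bases (Ybx1) to 3216 bases (Larp1). AAA, a lysine codon read by a tRNA that Ctu1 helps to modify, made up 3.77% of the codons of Pabpc1, the 81.1 percentile of 9606 genes, and 0.843% of those of Pcbp1, the 14 percentile. The other members had 1.86% to 2.61%, beside a median of 2.19% over all genes. CAA, a glutamine codon, made up 3.42% of Ybx1 (98.1 percentile) and 2.04% of Pabpc1 (88.3 percentile), and 0.554% (Ybx3) to 1.69% (Pcbp1) of the others, beside a median of 1.04%. GAA, a glutamate codon, made up 1.4% (Pcbp1, 15.8 percentile) to 3.46% (Pabpc1, 64.8 percentile), beside a median of 2.78%. The relation of these shares to the changes was not tested. Relatives are similar in sequence: the coding sequences of Pabpc1 and Pabpc4 were identical at 71.9% of 1887 aligned bases, those of Ybx1 and Ybx3 at 67% of 954 and those of Pcbp1 and Pcbp2 at 81.2% of 1014, with 0 shared stretches of 27 bases, the shortest footprint kept. Elsewhere in the genome such stretches recur, for 88.7% of those in Pabpc4, 69.3% in Ybx1, 47.3% in Pabpc1, 23.6% in Larp1, 17.1% in Pcbp2, 9.98% in Pcbp1 and 0% in Ybx3, so levels of Pabpc4, Ybx1 and Pabpc1 are uncertain to that extent. The methods name the gene counting of STAR for footprints, which takes uniquely aligned reads, and whether the deposited tables are that output, and how RNA reads with several matches were counted, cannot be seen from the files. Exons of Pcbp2 overlap Map3k12 (1573 bases) and a lincRNA (129 bases) on the opposite strand and a short RNA, Gm27406, on the same strand (182 bases), and those of Pcbp1 overlap an antisense gene over 75 bases, and whether the counting used strand is not given either.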

How the data were processed

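Footprint and RNA-seq values are raw counts per gene as deposited by the authors, with no normalization. According to the study's methods and the submitters' processing notes, footprint reads were trimmed with cutadapt 3.4, identifiers were extracted with UMI-tools 1.1.1, fragments under 27 nt and rRNA were removed, and reads were aligned with STAR 2.5.3a. The notes name mm10 (GRCm38), the paper a human genome, and the symbols are those of mouse. RNA came from stranded poly(A) libraries. Whether identifiers were collapsed is not given in the sources used here. Every listed entry reaches at least 100 footprint counts in 1 library of its treatment, and all RNA counts are even.

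Of the 9857 symbols found once in the tables of both treatments, those averaging 10 or more counts entered edgeR (version 4.0.16, under R 4.3.3, with TMM factors, the quasi-likelihood test and Benjamini-Hochberg adjustment over all genes), in 1 fit of 4 groups per assay, without a replicate term, and were called at an adjusted p under 0.05. Translational efficiency was the interaction of assay and group over 24 libraries, without a term for the culture. The scripts were tested on simulated data. Same-numbered samples deviated together for torin 1 in control (r 0.397 to 0.641 in footprints) and for Ctu1 iKO under torin 1 (0.315 to 0.52), and in transcripts (0.386 to 0.783), so the blocked fit stands beside these results. It did not hold for torin 1 in Ctu1 iKO footprints (0.0117 to 0.365). Alternatives were DESeq2 1.42.0, library totals, other filters, subsets of replicates and leaving out each library. No pair of libraries agreed within sampling noise.

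The members and lists were chosen with earlier results of these data known. Named are all 7 members, Ctu1, the highest and lowest gene of each list with torin 1 in control footprints, and the 3 genes most like each member. Some items that this rule names, and 1 start window, are not reported here.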

Additional observations from a re-analysis of the deposited data

Results flagged for a closer look

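In 28 groups of 5 or 6 footprint libraries (7 genes, 4 groups), 2 held a library far from the others by Dixon's criterion, where chance flags about 1 group in 20. Both were replicate 1 of control with torin 1. It had 85.3 CPM for Pabpc1 with the nearest library at 155 CPM (ratio of gap to range 0.854, taken on log2 CPM), and 124 CPM for Pabpc4 with the nearest at 213 CPM (0.712). In the same library the other 5 genes were not flagged.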

How the results depend on the processing

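Each footprint library held at least 222 counts of each of the 7 genes. Of 1757 values of single genes under alternatives, 1626 kept their direction and side of the threshold, 87 lost a call, 25 gained one and 19 changed sign. The causes were not tested.

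Of the 7 genes, torin 1 in control called 7 in footprints with the replicate block and 2 with replicates 1 and 2 alone, against 4. Ctu1 iKO under torin 1 called 0 with replicates 1 and 2 alone and 1 with replicates 1 to 3 alone, against 4. The interaction called 1, Pabpc1, with DESeq2, with the replicate block and with replicates 3 to 6 alone, against 0. Leaving out 1 library gave 3 to 4, 4 to 5 and 0 to 1 calls in these comparisons, and 5 in each case with torin 1 in Ctu1 iKO.

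In transcripts with torin 1 in control, all replicates as labelled called 1 gene, against 4, and leaving out 1 library called 2 to 4. With torin 1 in Ctu1 iKO, 1 was called with the 2 groups alone and 0 with all replicates as labelled, against 5, and 3 to 5 without 1 library. Between the cell types under torin 1, 0 were called with library totals, with the 2 groups alone and with all replicates as labelled, 2 with the replicate block, against 1, and 0 to 1 without 1 library. In DMSO the mean transcript difference was 0.15 with all replicates as labelled. In translational efficiency, torin 1 in control called 2 without control DMSO replicate 2, and 2 to 4 over all libraries left out. Between the cell types under torin 1, 1 was called with library totals and 4 with all replicates as labelled or with footprints of all replicates, against 2, and 1 to 2 without 1 library.

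Signs changed for these values. Larp1 had 0.02 in the interaction with replicates 3 to 6 alone and -0.13 to 0.04 without 1 library, -0.03 in translational efficiency with torin 1 in Ctu1 iKO with all replicates as labelled (against 0.22, not called), and between the cell types under torin 1 0.04 with library totals, 0.03 with all replicates as labelled and -0.11 to 0.05 without 1 library. The Pcbp1 transcript with torin 1 in Ctu1 iKO had -0.03 with library totals, -0.09 with all replicates as labelled and -0.03 to 0.11 without 1 library. Between the cell types under torin 1 the Ybx3 transcript had -0.02 and that of Pcbp1 -0.01 with library totals, and -0.12 to 0.10 and -0.06 to 0.13 without 1 library.

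Over all genes, the replicate block raised the calls in footprints to 1375 (from 681), 2099 (1187), 1712 (842) and 139 (63) for torin 1 in control, torin 1 in Ctu1 iKO, Ctu1 iKO under torin 1 and the interaction, in transcripts to 3105 (1138), 3946 (1717) and 3453 (970), and in translational efficiency to 442 (247) and 135 (66) for torin 1 in Ctu1 iKO and Ctu1 iKO under torin 1. A term for replicates 1 and 2 against 3 to 6 gave 1132, 1807, 1434 and 121 in footprints, replicates 1 and 2 alone 120, 237, 82 and 1, and replicates 1 to 3 alone 151, 360, 115 and 2. The 2 groups alone gave 788 and 487 in footprints and 794 and 127 in transcripts for torin 1 in Ctu1 iKO and Ctu1 iKO under torin 1. DESeq2 gave 109 in the interaction, 1690 transcripts between the cell types, and 440 and 152 in translational efficiency. All replicates as labelled gave 121, 0 and 0 transcripts and 174 in translational efficiency between the cell types. Without control DMSO replicate 1, 2 or 3 or control torin 1 replicate 1 or 2, torin 1 in control called 751, 595, 704, 621 and 683 transcripts. Between the cell types, 297 and 503 transcripts were called without control torin 1 replicate 2 or 3, 543, 529 and 1489 without Ctu1 iKO torin 1 replicate 1, 2 or 3, and 38 and 19 genes in translational efficiency without control torin 1 replicate 1 or 2.

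With torin 1 in Ctu1 iKO, where the numbers do not pair the footprint libraries, the replicate block added Larp1 (-0.26, adjusted p = 0.0183, edgeR). For Pabpc1 the footprint change with replicates 1 and 2 alone and with replicates 3 to 6 alone was -2.22 and -1.86 in control, -2.96 and -2.55 in Ctu1 iKO, and -1.34 and -1.49 between the cell types under torin 1. Beside this and the blocked values given with the results above, the block changed no call of these genes.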
